A study of Equus caballus with 37 samples.

Results

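The membrane trafficking genes GOPC, TRAPPC10, WDR7 and ATP13A3 were followed in the blood of Arabian horses over a year of race training. They are 4 of the 26991 genes in the count table, of which 20718 had at least 1 count in a library, and each was found by the Ensembl identifier that the study prints for its symbol: ENSECAG00000009566 for GOPC, ENSECAG00000015123 for TRAPPC10, ENSECAG00000007050 for WDR7 and ENSECAG00000006749 for ATP13A3. The study named these genes from the same libraries, so their direction of change is not independent evidence. RNA was sequenced from 37 libraries of jugular blood. The T0 group held 6 untrained horses (2 mares and 4 stallions), 5 of them 2.5 years old and 1 labelled as 3 years old. All trained horses were 3 years old, with 12 libraries after the slow canter phase in March (T1, 5 mares and 7 stallions), 11 after the intense gallop phase in May (T2, 4 mares and 7 stallions) and 8 in October when the racing season had ended (T3, 4 mares and 4 stallions). The trained horses were sampled repeatedly, but no label ties a library to a horse, and the comparisons treat the libraries as independent. All horses were Arabians, the labels name no drug and no engineered allele, and whether an untrained horse was later sampled in training is not known from the labels.

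Membrane trafficking moves newly made and recycled proteins between the endoplasmic reticulum, the Golgi apparatus, endosomes, lysosomes and the cell surface. At the Golgi, tethering complexes catch incoming vesicles and sorting proteins decide which cargo goes to the surface and which to lysosomes. Along the endosomal route, proton pumps acidify the lumen and P-type ATPases move ions, lipids or polyamines across the membrane, and leukocytes use these routes to display receptors, present antigen and secrete cytokines.

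Total counts per library lay between 3810631 and 14932603, and at the median total 1 CPM (counts scaled to a common library total) rests on about 10.6 counts. Expression is given as CPM of the library total times its TMM factor, the scaling factor of edgeR. The TMM factors lay between 1.17 and 1.24 in T0, 0.949 and 1.21 in T2, and 1.05 and 1.25 in T3. In T1 they fell into separate clusters, 0.410 to 0.696 in 5 libraries (replicates 1, 2, 3, 4 and 11, of which 4 were mares) and 0.922 to 1.14 in the other 7. The 5 libraries had between 11559 and 14108 genes with a count, against 14039 to 15208 in the other 7. The study's sequencing statistics carry no library names but list the periods in the same order as the libraries here. Read in that order, the same 5 had the lowest shares of uniquely mapped reads in T1. Replicates 1, 2, 3 and 4 were also the only T1 libraries of sequencing pool 1. Library quality and pool therefore cannot be told apart from the low factors, and their part was not tested. The blood label could not be checked against cell type markers: the reference table pairs 0 of the 40 marker symbols with an identifier in the counts, so they were not analysed here. In bulk blood, fewer cells of a type and less RNA per cell cannot be told apart.

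All 4 genes had the same order of mean expression over the periods, T1 lowest, then T2, then T0, with T3 highest. The order was the same with RLE size factors and with library totals without a factor. Mean expression in T1 was between 0.208 (ATP13A3) and 0.379 (TRAPPC10) of the T0 mean, and the T3 mean was between 1.16 (WDR7 and ATP13A3) and 1.31 (GOPC) times it. From T1 to T3 the mean rose 3.35-fold for TRAPPC10, 3.84-fold for GOPC, 3.91-fold for WDR7 and 5.57-fold for ATP13A3. The difference between the neighbours T0 and T3 did not pass the test for any of the 4 genes, and that between the neighbours T1 and T2 passed for WDR7 and ATP13A3 but not for GOPC and TRAPPC10.

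**Figure D1:**
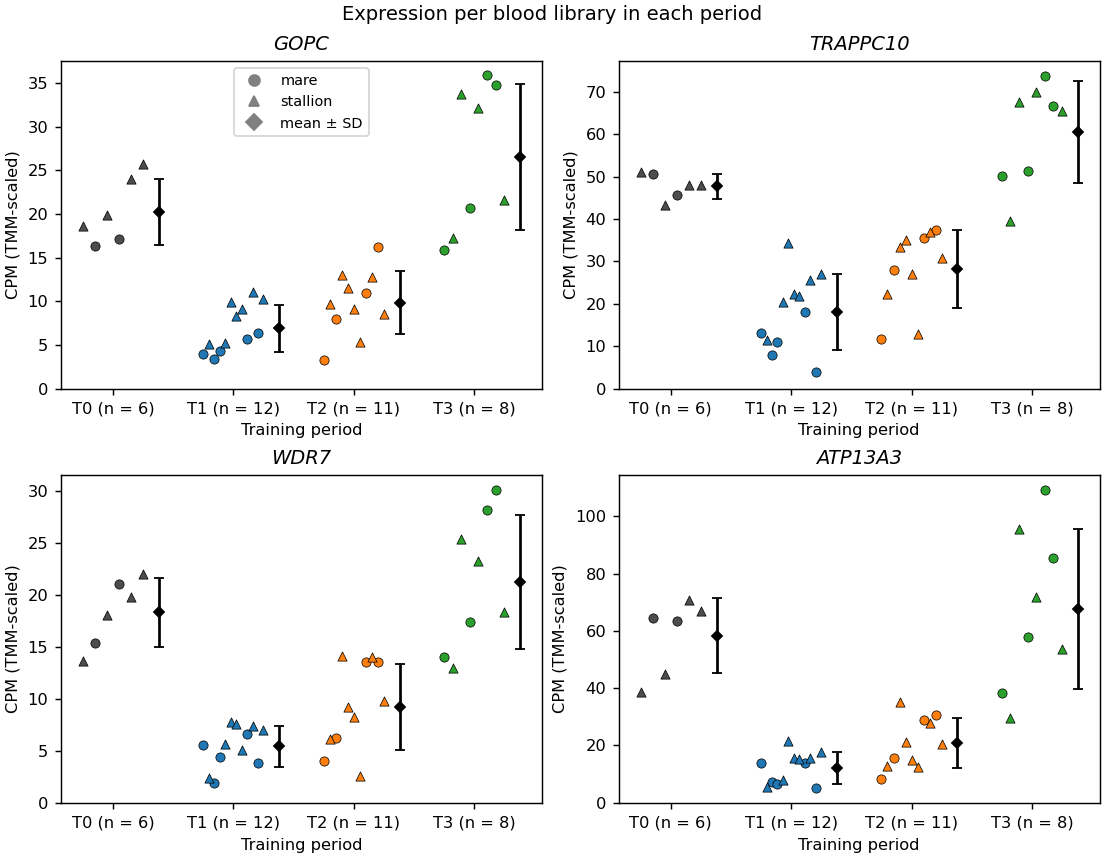
Expression of the 4 genes in each library (CPM, TMM-scaled; circles, mares; triangles, stallions) by training period, with the mean ± SD as black diamonds and bars. In each gene all T1 libraries lie below all T0 and all T3 libraries, and T2 lies between, with TRAPPC10 separating T2 from T3 without overlap.

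TRAPPC10 encodes a subunit of the TRAPPII complex, which tethers vesicles at the Golgi and activates Rab GTPases. In T0 its lowest, median and highest values were 43.4, 48.0 and 51.0 CPM (mean 47.8 ± 2.94, SD, n = 6). In T1 they were 3.84, 19.2 and 34.3 CPM (mean 18.1 ± 8.86, SD, n = 12) and in T2 11.7, 30.7 and 37.5 CPM (mean 28.2 ± 9.15, SD, n = 11). TRAPPC10 was the most even of the 4 genes among untrained horses, with a coefficient of variation of 6.16% in T0, whereas in T1 its highest library was 8.95 times its lowest, which rests on 6 counts in T1 replicate 11. In T3 the lowest, median and highest values were 39.5, 66.1 and 73.8 CPM (mean 60.6 ± 12.03, SD, n = 8). Of the 8 T3 libraries, 6 were above every T0 library and 1, replicate 2, was below every T0 library.

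GOPC encodes a Golgi-associated PDZ and coiled-coil protein that binds membrane proteins such as the chloride channel CFTR and directs them to lysosomes. Its lowest, median and highest values were 16.3, 19.2 and 25.7 CPM in T0 (mean 20.3 ± 3.80, SD, n = 6) and 3.42, 6.04 and 11.1 CPM in T1 (mean 6.91 ± 2.70, SD, n = 12). In T2 they were 3.30, 9.72 and 16.3 CPM (mean 9.87 ± 3.65, SD, n = 11), so that the lowest T2 library was below all of T1 and 4 of 11 were above all of T1. In T3 they were 15.9, 26.9 and 35.9 CPM (mean 26.5 ± 8.40, SD, n = 8). The T3 libraries fell apart into replicates 3, 5, 6 and 7, between 32.1 and 35.9 CPM, and replicates 1, 2, 4 and 8, between 15.9 and 21.7 CPM. The first 4 were above every T0 library, and the other 4 lay within or just below the T0 range.

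WDR7, also known as rabconnectin-3 beta, works with the DMXL proteins in the assembly of the vacuolar proton pump and thereby in the acidification of endosomes and lysosomes. Its lowest, median and highest values were 13.6, 18.9 and 22.01 CPM in T0 (mean 18.3 ± 3.30, SD, n = 6) and 1.88, 5.57 and 7.78 CPM in T1 (mean 5.43 ± 1.99, SD, n = 12). In T2 they were 2.57, 9.21 and 14.1 CPM (mean 9.22 ± 4.18, SD, n = 11), and 7 of 11 T2 libraries were above all of T1. In T3 they were 13.0, 20.8 and 30.1 CPM (mean 21.2 ± 6.45, SD, n = 8). WDR7 was the only one of the 4 genes whose T2 libraries reached into the T0 range, in replicates 4 and 9. Its values rest on between 6 and 108 counts per library in T1 and between 28 and 182 in T2.

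ATP13A3 encodes a P5B-type ATPase of endosomal membranes that takes part in polyamine uptake. Its lowest, median and highest values were 38.7, 64.1 and 70.9 CPM in T0 (mean 58.3 ± 13.1, SD, n = 6) and 5.12, 13.9 and 21.5 CPM in T1 (mean 12.2 ± 5.45, SD, n = 12). In T2 they were 8.21, 20.7 and 35.1 CPM (mean 20.8 ± 8.72, SD, n = 11). In T3 they were 29.6, 64.8 and 109 CPM (mean 67.7 ± 27.9, SD, n = 8), and 4 of the 8 were above every T0 library while 2, replicates 1 and 2, were below every T0 library. The spread of ATP13A3 in T3 was the widest of the 4 genes in that period, with a coefficient of variation of 41.2%.

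Some libraries stood at the ends of the range in all 4 genes. In T3, replicates 3, 5, 6 and 7 were the 4 highest and replicates 1 and 2 the 2 lowest for each gene. In T2, replicates 1 and 7 were the 2 lowest for each gene. In T1, replicates 6, 7, 10 and 12 were the 4 highest for 3 of the 4 genes, and in T2, replicates 4, 8, 9 and 10 were for 2 of the 4. The 2 lowest T1 libraries and both ends of the T0 range differed from gene to gene. In the study's sequencing statistics, read in library order, T3 replicates 1 and 2 were the only T3 libraries of sequencing pool 1. T2 replicates 1 and 7 were of different pools, and the part of the pool was not tested.

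The first comparison asks what changed from the conditioning phase to the gallop phase. Between T1 and T2, WDR7 and ATP13A3 were differentially expressed and higher in T2, with log2 fold changes of 0.76 (standard error, SE, 0.27, adjusted p = 0.035) and 0.77 (SE 0.26, adjusted p = 0.028). Differentially expressed means a Benjamini-Hochberg adjusted p-value below 0.05 in the quasi-likelihood F-test of edgeR and a fold change of at least 1.3. GOPC had 0.52 (SE 0.24, adjusted p = 0.087) and TRAPPC10 0.63 (SE 0.26, adjusted p = 0.060), and neither was differentially expressed. The count of 2 of 4 stands beside 11.2% of the 11188 genes tested that were differentially expressed and higher in T2, and the median log2 fold change was 0.69 over the 4 genes and 0.06 over all genes. The ranges of T1 and T2 overlapped for each gene, and 9 of 11 T2 libraries were above the T1 median for GOPC, TRAPPC10 and WDR7 and 8 of 11 for ATP13A3.

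These T1:T2 calls lay near the threshold and changed when any of several single libraries was left out. WDR7 was not differentially expressed when T1 replicate 1, 2, 3 or 4 or T2 replicate 4, 8, 9 or 10 was left out (log2 fold changes from 0.66 to 0.74). ATP13A3 was not without T1 replicate 2, 3 or 4 or T2 replicate 4, 8, 9 or 10 (0.67 to 0.73). In the fits that lost the call, adjusted p was 0.053 to 0.068 for WDR7 and 0.051 to 0.061 for ATP13A3 (edgeR F-test). Conversely, GOPC became differentially expressed without T1 replicate 10 (0.60) or T2 replicate 1 (0.63), and TRAPPC10 without T1 replicate 6, 10 or 12 or T2 replicate 1 or 7 (0.69 to 0.76). Without the 5 T1 libraries of low TMM factor, the log2 fold changes were 0.22 for GOPC, 0.23 for TRAPPC10, 0.46 for WDR7 and 0.44 for ATP13A3, none of the 4 was differentially expressed, and edgeR called 0 genes in all, with 1444 at an unadjusted p-value below 0.05.

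The second comparison followed the horses from the gallop phase to the end of the racing season, and here all 4 genes rose. Their log2 fold changes from T2 to T3 were 1.68 for ATP13A3 (SE 0.26, 95% confidence interval 1.14 to 2.23, adjusted p = 0.00013), 1.40 for GOPC (SE 0.23, interval 0.93 to 1.88, adjusted p = 0.00017), 1.18 for WDR7 (SE 0.26, interval 0.64 to 1.72, adjusted p = 0.0011) and 1.08 for TRAPPC10 (SE 0.19, interval 0.68 to 1.48, adjusted p = 0.00031), all from edgeR. In fold terms ATP13A3 rose 3.21-fold and TRAPPC10 2.11-fold. Of the 11599 genes tested, 22.5% were called and higher in T3, and 1.12% had a larger log2 fold change than ATP13A3. All 8 T3 libraries were above the T2 median for each gene. For TRAPPC10 every T3 library was also above every T2 library, a separation seen in 3.90% of the genes tested, and for the other genes 6 (WDR7) or 7 (GOPC and ATP13A3) of 8 T3 libraries were above all of T2. The median log2 fold change was 1.29 over the 4 genes and -0.05 over all genes.

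The third comparison set the horses at the end of the season against untrained horses, and 0 of the 4 genes were differentially expressed between T0 and T3, by edgeR or by DESeq2. The share of all 11696 genes that were called was 19.6%, and 10.4% were called and higher in T3. The log2 fold changes were 0.37 for GOPC (SE 0.19, interval -0.03 to 0.77, adjusted p = 0.16), 0.33 for TRAPPC10 (SE 0.12, interval 0.08 to 0.57, adjusted p = 0.052), 0.20 for WDR7 (SE 0.18, interval -0.18 to 0.58, adjusted p = 0.45) and 0.20 for ATP13A3 (SE 0.24, interval -0.32 to 0.71, adjusted p = 0.59). TRAPPC10 was the 1 of the 4 with an unadjusted p-value below 0.05, and 7 of 8 T3 libraries exceeded the T0 median. When T3 replicate 2 was left out, TRAPPC10 was called, at a log2 fold change of 0.41 (adjusted p = 0.0074 from edgeR). For WDR7 and ATP13A3, 4 of 8 T3 libraries exceeded the T0 median. The study, also with DESeq2, reported WDR7 and ATP13A3 as up-regulated between T0 and T3. It also listed GOPC and TRAPPC10, as orthologues of uncharacterized genes, as differentially expressed there. Those calls of the study were not recovered here. The results also differed in the other comparisons of the study. In T1:T2 the study called WDR7 but not ATP13A3, and in T2:T3 it reported smaller fold changes for both than were found here. It called far fewer genes in each of its comparisons than were called here. The reason for these differences was not tested.

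**Figure D2:**
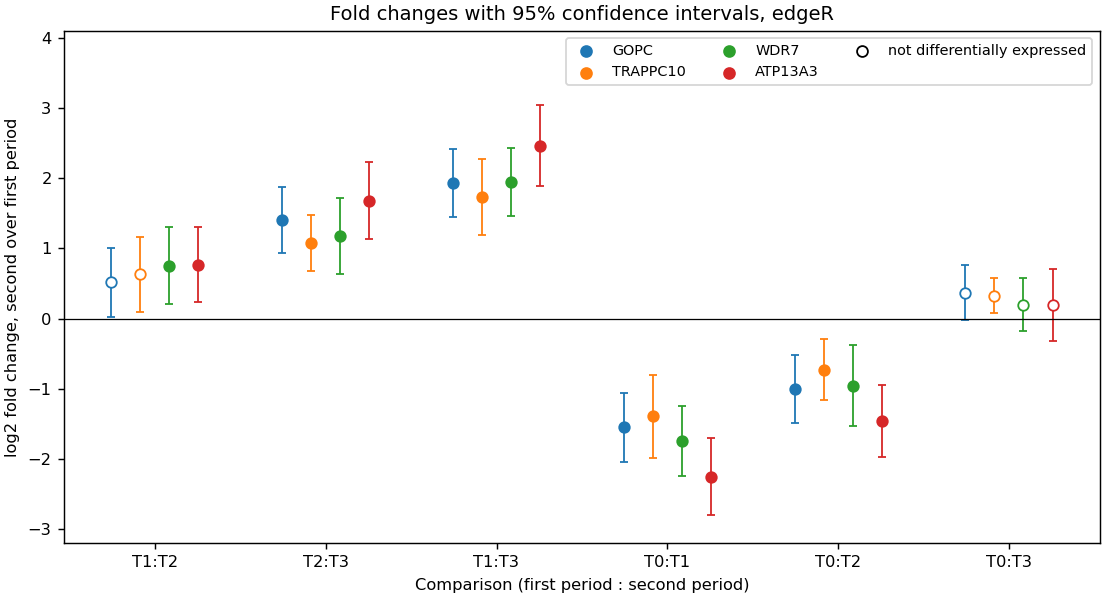
Log2 fold changes (second period over first) of the 4 genes in the 6 pairs of periods, with 95% confidence intervals from edgeR; open circles were not differentially expressed. The 4 genes lie on the same side of 0 within each pair, furthest from it in T1:T3 and T0:T1 and nearest in T0:T3.

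The remaining pairs were not among the comparisons of the study. Between T0 and T1 all 4 genes fell, and every T1 library was below every T0 library for each gene. The log2 fold changes were -2.26 for ATP13A3 (SE 0.26, adjusted p = 5.3e-06), -1.75 for WDR7 (SE 0.24, adjusted p = 2.2e-05), -1.56 for GOPC (SE 0.23, adjusted p = 5.4e-05) and -1.40 for TRAPPC10 (SE 0.28, adjusted p = 0.00068), all from edgeR. ATP13A3 was thus 4.79-fold lower in T1, and 0.667% of genes had a more negative log2 fold change. Of the 11544 genes tested, 29.2% were differentially expressed and lower in T1, and for 13.9% all T1 libraries were below all T0 libraries. The median log2 fold change was -1.65 over the 4 genes and -0.05 over all genes. Without the 5 T1 libraries of low TMM factor, all 4 genes remained differentially expressed, with -1.89 for ATP13A3, -1.41 for WDR7, -1.22 for GOPC and -0.95 for TRAPPC10.

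Between T0 and T2 the 4 genes also fell, by less. The log2 fold changes were -1.46 for ATP13A3 (SE 0.25, adjusted p = 0.0011), -1.01 for GOPC (SE 0.23, adjusted p = 0.0041), -0.96 for WDR7 (SE 0.28, adjusted p = 0.013) and -0.73 for TRAPPC10 (SE 0.21, adjusted p = 0.012), all from edgeR, beside 16.5% of the 11662 genes tested that were called and lower in T2. All 11 T2 libraries were below the T0 median for each gene. They were below every T0 library for GOPC, TRAPPC10 and ATP13A3, which held for 5.98% of genes, and 9 of 11 were for WDR7. With the log2 TMM factor as a term, none of the 4 was differentially expressed, with log2 fold changes from -0.73 (ATP13A3) to -0.07 (WDR7), and edgeR called 0 genes in all, with 1180 at an unadjusted p-value below 0.05.

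From T1 to T3 the 4 genes rose by the largest amounts, and every T3 library was above every T1 library for each of them. The log2 fold changes were 2.47 for ATP13A3 (SE 0.28, adjusted p = 7.6e-07), 1.95 for WDR7 (SE 0.23, adjusted p = 1.4e-06), 1.94 for GOPC (SE 0.23, adjusted p = 1.5e-06) and 1.73 for TRAPPC10 (SE 0.26, adjusted p = 1.6e-05), all from edgeR. The background was high in this pair: of the 11471 genes tested, 32.9% were called and higher in T3, and 12.1% had all T3 libraries above all T1 libraries. The log2 fold change was larger than that of ATP13A3 for 0.706% of genes and larger than that of TRAPPC10 for 5.40%. Without the 5 T1 libraries of low TMM factor the values were 2.13 for ATP13A3, 1.65 for WDR7, 1.63 for GOPC and 1.31 for TRAPPC10, and all 4 remained differentially expressed. The pairs share libraries, T1 in this pair and in T0:T1, and T3 in this pair and in T2:T3, so their agreement in direction is not repeated evidence.

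In T1 and T2 the 4 genes were lower in libraries with a lower TMM factor. How many other genes did the same was not tested. In T1, mean expression in the 5 libraries of low factor and in the other 7 was 9.48 and 24.2 CPM for TRAPPC10, 4.66 and 8.52 CPM for GOPC, 3.60 and 6.73 CPM for WDR7 and 7.63 and 15.4 CPM for ATP13A3. For TRAPPC10 the 5 libraries were the 5 lowest of T1, and for each of the other genes 4 of them were among the 5 lowest. Within T2, where the factor varied less, the Pearson correlation of log2 CPM with the log2 factor lay between 0.78 (GOPC) and 0.88 (WDR7) over 11 libraries, Spearman's rho between 0.79 and 0.94, and the 4 permutation tests had adjusted p between 0.0026 and 0.011 for r. Without the 2 libraries farthest from the median factor, r in T2 lay between 0.73 and 0.86. In the 7 T1 libraries with a factor of 0.7 or more, WDR7 had r = 0.87 and rho = 0.96 (exact permutation test, adjusted p = 0.025 and 0.014; r = 0.85 without the 2 farthest libraries), and the other 3 genes did not pass. In T3, over 8 libraries, r lay between 0.63 and 0.75 and rho between 0.62 and 0.81. None passed (adjusted p from 0.072 to 0.14 for r in the exact permutation test). Without the 2 farthest libraries, r in T3 lay between 0.83 and 0.95, which was not tested. In T0, r lay between -0.78 and 0.03, and between -0.75 and 0.80 without the 2 farthest libraries. In all, 5 of the 16 relations passed. The factor is a divisor in CPM. The fits with it as a term, given next, show how the calls moved and are no test of its part in the differences between periods. With the log2 TMM factor as a term, WDR7 (0.26) and ATP13A3 (0.27) lost their calls in T1:T2 and all 4 genes lost theirs in T0:T2. All 4 kept their calls in T2:T3, T0:T1 and T1:T3 with smaller log2 fold changes, between 0.71 (WDR7) and 1.197 (ATP13A3) from T2 to T3, between -1.75 (ATP13A3) and -0.67 (TRAPPC10) from T0 to T1, and between 1.05 (TRAPPC10) and 1.93 (ATP13A3) from T1 to T3.

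**Figure D3:**
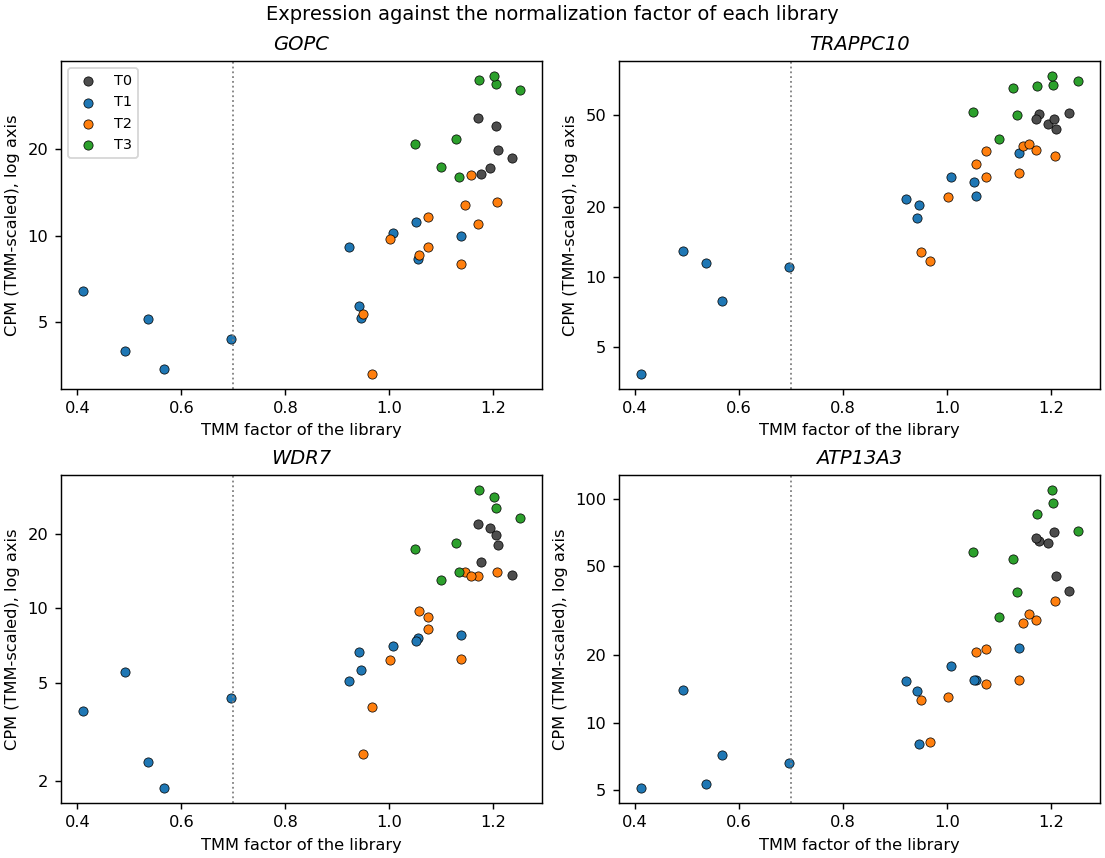
Expression of the 4 genes in each library (CPM, TMM-scaled, log axis) against the TMM factor of the library, coloured by period; the dotted line marks a factor of 0.7. The 5 T1 libraries left of the line are mostly among the lowest, and at factors above 1.05 the T3 and T0 libraries lie above T1 and most of T2.

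Mares and stallions were compared over all periods with period as a term. The log2 fold change of stallions (n = 22) over mares (n = 15) was 0.31 for GOPC (SE 0.17, interval -0.03 to 0.66, adjusted p = 0.31), 0.31 for TRAPPC10 (SE 0.17, interval -0.04 to 0.66, adjusted p = 0.32), 0.08 for WDR7 (SE 0.19, interval -0.31 to 0.46, adjusted p = 0.83) and 0.08 for ATP13A3 (SE 0.20, interval -0.32 to 0.49, adjusted p = 0.83). None was differentially expressed, and 4 of the 12025 genes tested (0.0333%) were. In T1, TRAPPC10 had a mean of 10.8 ± 5.34 CPM in mares (SD, n = 5) and 23.3 ± 6.96 CPM in stallions (SD, n = 7), but 4 of these 5 mares were among the libraries of low TMM factor. In T3 the means were 60.5 ± 11.6 CPM in mares (SD, n = 4) and 60.6 ± 14.2 CPM in stallions (SD, n = 4). Sex was not balanced over the T1 libraries of low factor, and its part in the T1 values cannot be told apart from theirs.

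Within a period, the 4 genes varied together over libraries in T2 and T3 and not detectably so in T0. In T2 the 6 pairs of genes had Pearson correlations of log2 CPM between 0.85 and 0.93 and rho between 0.85 and 0.95 over 11 libraries, and 6 of 6 passed (permutation test, adjusted p from 0.00024 to 0.0031 for r). In T3 the 6 pairs had r between 0.86 and 0.98 and rho between 0.83 and 0.95 over 8 libraries, and again 6 of 6 passed (exact permutation test, adjusted p from 0.0013 to 0.0082 for r). The highest was GOPC with WDR7 in T3. Without the 2 libraries farthest from the median, r lay between 0.69 and 0.96 in T2 and between 0.66 and 0.96 in T3. In T1, over the 7 libraries with a factor of 0.7 or more, r lay between 0.43 and 0.80 and rho between 0.43 and 0.96. GOPC with ATP13A3 passed (r = 0.80, exact permutation test, adjusted p = 0.016) but not by rho (0.82, adjusted p = 0.059). Its r was 0.25 without the 2 farthest libraries, so it rests on those libraries. TRAPPC10 with ATP13A3 passed by rho (0.96, exact permutation test, adjusted p = 0.0074) but not by r (0.69, adjusted p = 0.15). Its r was 0.74 without the 2 farthest libraries. In T0, over 6 libraries, r lay between -0.58 and 0.68 and 0 of 6 passed. In all, 13 of 24 relations passed by r and 13 by rho. The genes of a library share its scaling factor, and the genes were chosen together, so these relations are a description.

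Over all 37 libraries, the likeness of each gene to the others was measured as the Pearson correlation of log2(CPM + 1) among 9328 other genes whose mean was 50 counts or more. The median over these genes was between 0.05 (GOPC) and 0.15 (TRAPPC10). Within the group, WDR7 and ATP13A3 were the most alike, with r = 0.95, which ranked ATP13A3 as number 36 for WDR7 and WDR7 as number 40 for ATP13A3. After each period's mean was subtracted, r was 0.85 and the ranks were 63 and 52. TRAPPC10 stood furthest from the others, with r of 0.90 to 0.92 and ranks of 532 to 891 in its own list. After each period's mean was subtracted, its r with the others was 0.72 to 0.80. Their ranks in its list were then 1090 to 1805, so many other genes were more like TRAPPC10. The gene most like TRAPPC10 was ENSECAG00000006975 (r = 0.99), and the gene most like WDR7 was ENSECAG00000012168 (r = 0.98). The sources used here give no symbol for either.

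The ratio of a pair of genes within a library does not depend on the scaling of that library, and changes in the ratio do not depend on gene length. The 6 ratios between the 4 genes were compared in the 6 pairs of periods with 36 permutation tests, of which 1 passed after adjustment. This was ATP13A3 over TRAPPC10 between T0 and T2, chosen for display after its values were seen. Its log2 ratio had a lowest, median and highest value of -0.40, 0.41 and 0.56 in T0 (mean 0.26 ± 0.37, SD, n = 6) and -0.86, -0.51 and 0.07 in T2 (mean -0.48 ± 0.32, SD, n = 11). The ranges overlapped through T0 replicates 1 and 3, and the difference of means was -0.73 (exact permutation test, two-sided p = 0.0013, adjusted p = 0.047). In T1 the log2 ratio ranged from -1.34 to 0.39 (mean -0.52 ± 0.48, SD, n = 12) and in T3 from -0.41 to 0.57 (mean 0.07 ± 0.40, SD, n = 8). The differences were -0.77 between T0 and T1 and 0.54 between T2 and T3, and neither passed (both adjusted p = 0.059, exact permutation test). ATP13A3 thus had the largest change of the 4 genes and TRAPPC10 the smallest in 4 of the 6 pairs, and the difference between them passed in 1 pair. With a pseudocount of 2 in place of 0.5, a further 4 of the 36 tests passed, among them ATP13A3 over TRAPPC10 in T2:T3 and T0:T1 (adjusted p = 0.046, exact permutation test).

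**Figure D4:**
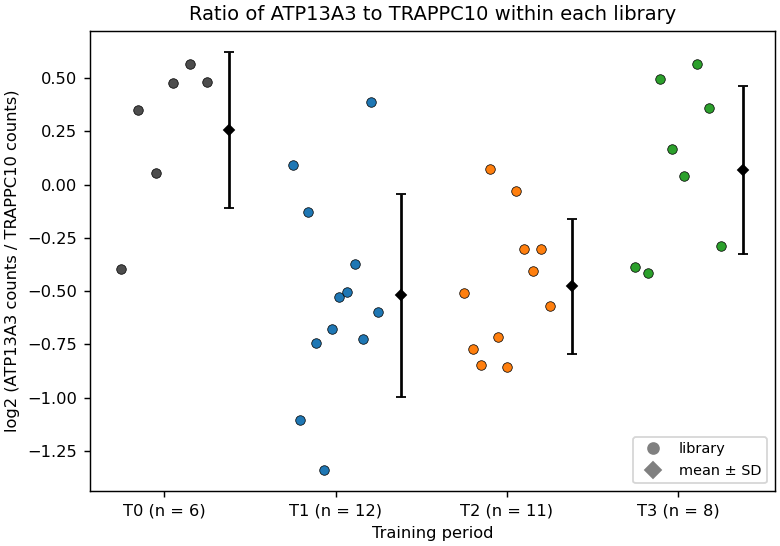
Log2 ratio of ATP13A3 to TRAPPC10 counts within each library by period, with the mean ± SD as black diamonds and bars; the height of the axis also depends on gene length, so only differences between periods are read. The T0 and T3 means (0.26 and 0.07) lie above the T1 and T2 means (-0.52 and -0.48), with overlapping libraries in each pair.

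Other genes of the secretory and endocytic routes could be followed only where the study prints an identifier. None of the 77 symbols of the lists for the TRAPP complex, the proton pump, the other P5-type ATPases, Golgi proteins and endosomes was paired with the counts by the reference table, so the lists as such were not analysed here. The study prints identifiers for TMED5, GALNT7, MAP1LC3B and a gene that its text calls LY5, again chosen on these libraries. LY5 was read here as LY75, a reading that could not be checked against the reference table. TMED5, a cargo receptor of the early secretory pathway and a member of the Golgi list, was higher in T3 than in T2, with a log2 fold change of 0.91 (SE 0.21, adjusted p = 0.0014 from edgeR), and lower in T1 than in T0, with -1.41 (SE 0.20, adjusted p = 2.8e-05). GALNT7, a Golgi enzyme that adds sugars to mucin-type glycoproteins, had 0.80 (SE 0.25, adjusted p = 0.012) in T2:T3 and -1.43 (SE 0.34, adjusted p = 0.0021) in T0:T1, and was differentially expressed in both. LY75, the endocytic receptor DEC-205, had 1.29 (SE 0.25, adjusted p = 0.00049) and -1.98 (SE 0.34, adjusted p = 0.00018) and was differentially expressed in both. These calls stand beside 22.5% of all genes tested called and higher in T3 in T2:T3. In T0:T1, 29.2% were called and lower in T1.

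TMED5, GALNT7 and LY75 had the same order of means as the 4 genes, T1 below T2 below T0 below T3. MAP1LC3B, the autophagosome protein LC3B, had another order, T0 below T2 below T3 below T1, and was higher in T1 than in T0, with a log2 fold change of 0.66 (SE 0.26, adjusted p = 0.036 from edgeR), in a pair where 28.9% of genes were called and higher in T1. It was not differentially expressed in the other pairs, with 0.03 in T2:T3 (SE 0.16) and -0.48 in T1:T2 (SE 0.21, adjusted p = 0.075). The T0:T1 call of MAP1LC3B was lost with the log2 TMM factor (0.14), the title numbers (0.49) or the first surrogate variable (0.38) as a term, without the filter on low counts (0.58), with the fold tested by glmTreat (0.66), and without T1 replicate 1 or 2 or any 1 of the 6 T0 libraries (0.60 to 0.68). With the log2 TMM factor as a term, GALNT7 was called neither in T2:T3 (0.42) nor in T0:T1 (-0.55), while TMED5 and LY75 kept their calls in both. GALNT7 was also not called in T2:T3 by glmTreat (0.80, adjusted p = 0.084).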

How the data were processed

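The authors trimmed reads with Flexbar, checked them with FastQC, aligned them with STAR to the EquCab2 assembly with Ensembl annotation, and estimated reads per gene with RSEM. The deposited values are these estimates rounded to whole-number counts, without normalization. The library kit does not mark strand, so reads of overlapping antisense genes cannot be told apart. Tool names beyond these are those of the submitters' processing notes, and the study tested with DESeq2.

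The analysis used edgeR 4.0.16 in R 4.3.3, with filterByExpr, TMM factors and the quasi-likelihood F-test on the libraries of both periods of a pair, with Benjamini-Hochberg adjustment over all genes tested. Genes with an adjusted p-value below 0.05 and at least a 1.3-fold difference were called, and positive log2 fold changes are higher in the second period. The SE was taken from the ratio of the log2 fold change to the root of F. The simulated data had 100 genes changed at each fold in each pair. There edgeR recovered between 7% (T0:T1) and 39% (T2:T3) of 1.5-fold changes, with 22% in T1:T2 and 36% in T0:T3. For 2-fold changes it recovered between 32% (T0:T1) and 83% (T2:T3). Between 1.61% (T2:T3) and 4.71% (T1:T2) of the simulated calls were false. In the real data between 2295 (T0:T3) and 7452 (T1:T3) genes were called, far more than were changed in the simulation. The simulated rates therefore need not hold for the real tests. A gene that was not called may still have changed. Because the labels name no horse, p-values treat libraries as independent. No library of a period repeated another, since chi-square per degree of freedom was 14.5 or more.

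Correlations within a period used two-sided permutation tests, exact below 10 libraries and with 100000 resamples otherwise, adjusted over 24 relations between genes and 16 with the factor. T1 correlations used the libraries with a TMM factor of at least 0.7, a value set after the factors were seen. Ratios used counts plus 0.5 and were added after the levels were seen. The members and lists were chosen with earlier results of these data known. Named genes were the 4 members, their most alike genes (at most 2 identifiers without a symbol), and secretory or endocytic genes with an identifier printed by the study. The alternatives were RLE size factors, DESeq2 1.42.0, no filter, one fit of all libraries, sex, the number in the sample title, the log2 TMM factor or the first surrogate variable (sva 3.50.0) as a term, genes over 1% of counts left out, other uses of the fold threshold and each library left out. The fits without the T1 libraries of low factor were added after the data were seen. Coordinates were not used, and sequencing pools were not used as a term.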

Additional observations from a re-analysis of the deposited data

How the results depend on the processing

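In T2:T3, T0:T1 and T1:T3, the 4 genes kept direction and call in every alternative and with each library left out. The T1:T2 calls did not hold. WDR7 and ATP13A3 were not differentially expressed with the log2 TMM factor as a term (0.26 and 0.27), the first surrogate variable (0.13 and 0.16), the fold tested by glmTreat (0.76 and 0.77) or without the T1 libraries of low factor (0.46 and 0.44), and WDR7 also not without the filter (0.79, adjusted p = 0.051). TRAPPC10 was called in T1:T2 with DESeq2 (0.63), all libraries in one fit (0.61) and sex as a term (0.70), and had the opposite sign with the surrogate variable (-0.085). In T0:T3, GOPC (0.47) and TRAPPC10 (0.39) were called with the TMM factor as a term. In T0:T2 that term gave -0.39 for GOPC, -0.078 for TRAPPC10, -0.067 for WDR7 and -0.73 for ATP13A3, none called, and glmTreat did not call TRAPPC10 (-0.73) and WDR7 (-0.96). The cause was not tested, except that glmTreat sets a stricter threshold by construction. With each library left out, T1:T2 values ranged from 0.43 to 0.63 for GOPC, 0.55 to 0.76 for TRAPPC10, 0.66 to 0.86 for WDR7 and 0.67 to 0.88 for ATP13A3, and T0:T3 values from 0.29 to 0.41 for TRAPPC10.

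Counts of differentially expressed genes by edgeR moved with the TMM factor as a term in each pair but T0:T3. They were 0 in T1:T2 (649 at an unadjusted p below 0.05) against 3584, 0 in T0:T2 (1180) against 3900, 2965 in T2:T3 against 5107, 2795 in T0:T1 against 6708 and 4804 in T1:T3 against 7452. DESeq2 called 4310 in T1:T2 and 4133 in T0:T2. With the surrogate variable or without the T1 libraries of low factor, T1:T2 had 0 (610 and 1444 at an unadjusted p below 0.05). With glmTreat the counts were 1018 in T1:T2, 1933 in T2:T3, 282 in T0:T3 and 668 in T0:T2. With all libraries in one fit they were 717 in T0:T3 against 2295 and 2113 in T0:T2. The share of calls higher in T2 in T1:T2 was 35.1%, against 49.2% with the title numbers as a block, 45.3% with sex and 44.7% in one fit, and in T0:T2 it was 50.7%, against 37.3% in one fit. The share higher in T3 in T2:T3 was 51.1%, against 61.1% with the TMM factor as a term.

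The numbers in the sample titles did not pair the libraries: correlations of same-numbered libraries ranged from -0.33 to 0.52 in T1:T2, and 3 of 11 correlated best with their own number. With these numbers as a replicate block, GOPC (0.59) and TRAPPC10 (0.78) were called in T1:T2 and T0:T3 had 1447 calls, and no other call of the 4 genes changed. Without T1 libraries, the difference between stallions and mares changed sign for WDR7 (-0.065) and ATP13A3 (-0.12). Values of other trafficking genes changed sign: in T1:T2 with the surrogate variable GALNT7 (-0.025) and LY75 (-0.061), in T0:T3 TMED5 with sex (-0.0053), the block (-0.13), the surrogate variable (-0.030) or single libraries left out (-0.071 to 0.086), in T2:T3 MAP1LC3B with single libraries left out (-0.060 to 0.11), and with the TMM factor GALNT7 (0.0043) and MAP1LC3B (-0.080) in T0:T2 and MAP1LC3B (0.062) in T1:T3. With a pseudocount of 2, the ratios of ATP13A3 to TRAPPC10 in T2:T3 and T0:T1, to WDR7 in T1:T3 and to GOPC in T0:T1 also passed (adjusted p = 0.046). Depth limits all 4 genes in T1. Their lowest counts, all in T1 replicate 11, were 6 for WDR7 and TRAPPC10, 8 for ATP13A3 and 10 for GOPC.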
